A study of Mus musculus with 4 samples.

Results

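Erk, the last kinase of the Ras, Raf, Mek and Erk cascade, switches on genes that encode its own inhibitors together with immediate-early transcription factors, and 10 such genes are described here in mouse embryonic stem cells (mESCs). The genes were chosen by symbol as known transcripts under Erk control and are the phosphatases Dusp4, Dusp5 and Dusp6, the inhibitors Spry2, Spry4 and Spred1, the Ets factors Etv4 and Etv5, and the immediate-early factors Egr1 and Fos. All 10 were found among the 37310 genes of the expression table. mRNA was sequenced from JM8 mESCs, a line of the C57BL6/N strain, as 2 libraries labelled wild-type and 2 labelled Bmal1-/-. Bmal1 is a transcription factor of the circadian clock, and the comparison asks how the transcriptome of undifferentiated cells differs in its absence. All 4 cultures were undifferentiated and feeder-free on gelatin in 2i + LIF, in which 1 µM PD0325901 inhibits Mek, 3 µM CHIR99021 inhibits Gsk3 and LIF activates Stat3. Every value below was therefore measured with Mek, the kinase directly above Erk, inhibited in both genotypes. The mutant cells were made with CRISPR/Cas9 directed at exon 5 of Bmal1, and the main mutant line of the study was a single clone with an indel on each allele. The libraries of each genotype are titled as experiments 1 and 2, and the design text of the series calls them biological replicates without saying how the cultures were separated, so p-values measure only the spread between these samples, and genotype and clone cannot be told apart.

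When Fgf or another ligand activates its receptor, Ras recruits Raf, Raf phosphorylates Mek and Mek phosphorylates Erk1/2. Active Erk phosphorylates ternary complex factors bound with Srf at CArG boxes, which turns on Fos and Egr1 within minutes, and it raises Pea3-type Ets factors and the feedback inhibitors more slowly. Dual-specificity phosphatases remove the phosphates from Erk, while Sprouty and Spred proteins act upstream on Ras and Raf. In mESCs, Fgf4 signalling through Erk prepares the cells to leave naive pluripotency, and Mek inhibition holds them there.

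The windows around the transcription start of 3 of these genes are shown. They belong to Dusp6 and Spry2, called as lower and higher in every setting that tested them with 2 libraries per genotype, and to Dusp5. Dusp5 was the only gene with a motif match among the 6 genes whose windows were searched. Each window runs from 250 bases before to 50 bases after a RefSeq start in GRCm38.p6, in the direction of transcription. Matches to the CArG box are in capitals. The windows are chr10:99262981-99263280 (plus strand) for Dusp6, chr14:105896770-105897069 (minus strand) for Spry2 and chr19:53528895-53529194 (plus strand) for Dusp5.
Dusp6: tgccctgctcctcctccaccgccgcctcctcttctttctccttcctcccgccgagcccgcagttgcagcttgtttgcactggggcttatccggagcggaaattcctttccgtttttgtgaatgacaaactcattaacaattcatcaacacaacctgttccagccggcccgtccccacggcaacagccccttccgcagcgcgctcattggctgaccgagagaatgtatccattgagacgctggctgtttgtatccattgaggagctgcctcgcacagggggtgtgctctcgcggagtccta
Spry2: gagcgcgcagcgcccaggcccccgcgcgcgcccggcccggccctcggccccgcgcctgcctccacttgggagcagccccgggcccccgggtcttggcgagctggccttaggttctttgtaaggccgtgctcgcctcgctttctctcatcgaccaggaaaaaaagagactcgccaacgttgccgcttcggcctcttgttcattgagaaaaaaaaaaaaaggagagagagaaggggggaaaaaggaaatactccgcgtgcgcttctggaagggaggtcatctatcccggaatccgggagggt
Dusp5: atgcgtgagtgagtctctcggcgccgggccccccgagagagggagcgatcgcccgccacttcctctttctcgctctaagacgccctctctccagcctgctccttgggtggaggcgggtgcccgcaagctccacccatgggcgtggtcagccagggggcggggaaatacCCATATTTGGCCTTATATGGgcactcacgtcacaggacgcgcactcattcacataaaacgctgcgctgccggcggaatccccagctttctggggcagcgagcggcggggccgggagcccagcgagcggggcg
Both strands of 7 windows of 6 of the genes (Dusp5, Dusp6, Spry2, Spred1, Etv5 and Fos) were searched for 5 motifs. Each motif was counted by itself where matches overlapped. Windows of Dusp4, Spry4, Etv4 and Egr1 were not searched, nor were bases farther from the starts. Whether those hold these motifs is not known here. The Dusp5 window held 2 adjoining CArG boxes, CCATATTTGG beginning at -82 and CCTTATATGG beginning at -72 from the start, and the CArG box was found in 1.63% of all 32851 RefSeq windows of 300 bases. None of the 7 windows held the E-box CACGTG, the Ets letters CCGGAAG, the cAMP response element TGACGTCA or the AP-1 letters TGACTCA. These were in 7.15%, 8.86%, 1.79% and 5.20% of all windows. The windows were rich in G and C, from 57.3% in Dusp6 to 74.0% in the more upstream of the 2 Etv5 windows, against a median of 52.7% over all windows.

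Libraries held 21504265 to 23329034 reads on genes, and mitochondrial transcripts took 1.95% to 2.27% of them. Values are read counts divided by a factor of their library (trimmed mean of M values, TMM), on a linear scale and not per length unless stated, and 3 reads corresponded to 2.82 to 3.19. The transcript of the targeted gene, listed as Arntl (ENSMUSG00000055116), was at 678 and 733 in wild-type and at 556 and 590 in the libraries labelled Bmal1-/-, without overlap. Its log2 fold change was −0.30 (adjusted p = 0.0011, limma), with 81.2% of the wild-type mean left, so mRNA was present in all libraries and does not identify the genotype. Naive pluripotency markers were abundant in every library, with sums of 166962 and 170128 in wild-type against 174379 and 176059 in Bmal1-/- (5 of 10 tested higher, 4 lower). Summed markers of other states were 111 and 141 in wild-type against 1554 and 1566 in Bmal1-/- for 3 two-cell-like genes, of which all 3 were higher, and 1720 and 1745 against 860 and 842 for trophoblast genes (2 of 4 tested lower, with Elf5 and Plac1 at 3 reads or fewer). They were 2842 and 2580 against 2141 and 2236 for primed epiblast genes (2 of 2 tested lower, with Pou3f1 at 0), 171 and 189 against 195 and 191 for primitive endoderm genes (2 of 4 tested higher, 1 lower), and 69.5 and 75.4 against 108 and 97.3 for fibroblast genes (1 of 2 tested higher, with Col1a2, Col3a1, Postn and Lum at 3 reads or fewer). Most of the trophoblast sum was Tfap2c alone, at 1429 and 1444 in wild-type against 576 and 541 in Bmal1-/-, while Krt7 and Krt8 were not called. Most of the primed epiblast sum was Dnmt3b, at 2631 and 2421 against 2063 and 2160. Beside all these counts, 24.0% of all genes tested were higher and 28.6% lower. The part of these markers in the results below was not tested. In bulk RNA a change in how many cells express a gene and a change in RNA per cell cannot be told apart.

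The Erk feedback genes did not move in one direction: among the phosphatases, and again among the Sprouty and Spred inhibitors, some rose while a relative fell. Among the 9 genes that averaged 10 or more over the libraries and so were tested, Dusp4, Spry2 and Spred1 were higher in Bmal1-/- and Dusp6, Spry4 and Etv4 were lower, while Dusp5, Etv5 and Fos did not pass the test. The test was limma on log2(value + 1) with Benjamini-Hochberg adjustment over 14510 genes and a threshold of 0.05. Higher calls thus took 3 of 9 genes against a background of 24.0% of all genes tested, and lower calls 3 of 9 against 28.6%, and with 9 genes these counts say nothing particular about the group. The median log2 fold change of the 9 genes was 0.13, against −0.03 over all genes tested. It was 0.04 without wild-type replicate 2, 0.05 without Bmal1-/- replicate 1 and 0.08 without wild-type replicate 1, but 0.18 without Bmal1-/- replicate 2. Under quantile normalization it was 0.06, and with equal library totals 0.19. By limma 0 of the 9 genes passed 2-fold at an adjusted p under 0.05, where 7.21% of all genes tested did; 0 did so at an unadjusted p under 0.05, a level that 6 genes reached at any fold, and edgeR and DESeq2 also gave 0.

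**Figure D1:**
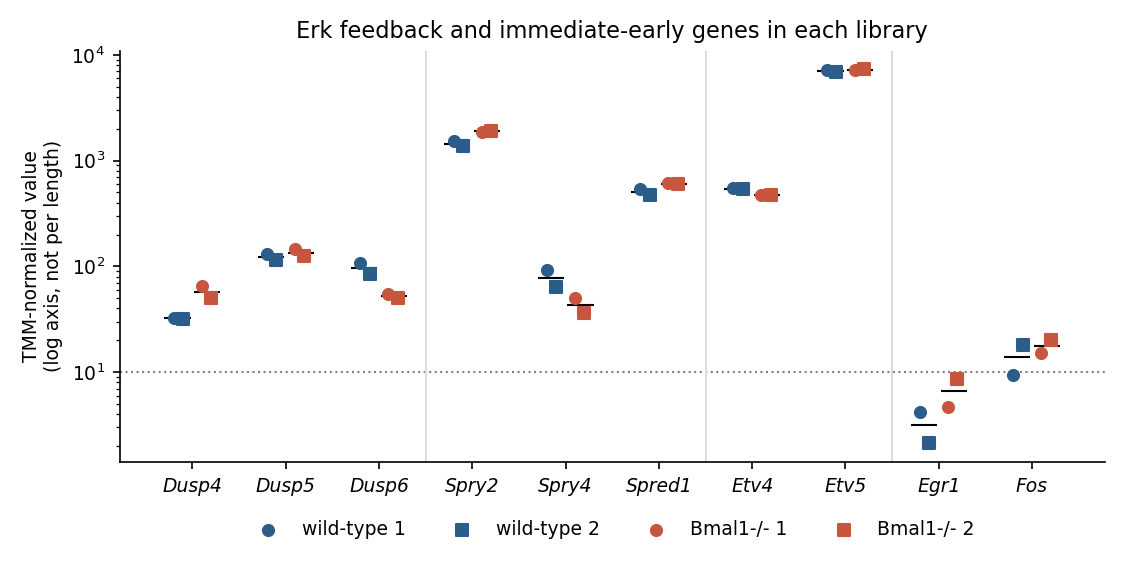
TMM-normalized value (log axis, not per length) of the 10 genes in each library, wild-type in blue and Bmal1-/- in red, with circles for replicate 1, squares for replicate 2, a black line at each mean of 2 libraries and a dotted line at the mean of 10 required for testing. Etv5 lies between 6863 and 7287, Dusp6 falls from 109 and 85.0 to 55.4 and 50.5, and Egr1 stays under the dotted line.

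The Erk phosphatases moved in opposite directions, Dusp6 downward and Dusp4 upward. Dusp6 (ENSMUSG00000019960, chromosome 10, 98725865 to 98730122, plus strand, mm9) encodes the cytoplasmic phosphatase that is specific for Erk1/2. It was measured at 109 and 85.0 in wild-type and at 55.4 and 50.5 in Bmal1-/-, from 103 and 80 reads against 59 and 53. Both mutant libraries lay below both wild-type libraries, and 54.8% of the wild-type mean was left. The log2 fold change of Dusp6 was −0.85 (standard error 0.18, 95% interval −1.22 to −0.47, adjusted p = 5.0e-04, limma). Over 15 alternatives it lay between −1.05 and −0.67, and it passed the threshold in each that kept 2 libraries per genotype. Dusp4 (ENSMUSG00000031530, chromosome 8, 35870351 to 35882948, plus strand) encodes a nuclear phosphatase that acts on Erk and also on other MAP kinases. It was at 32.7 and 31.9 in wild-type and at 64.8 and 50.5 in Bmal1-/-, from 31 and 30 reads against 69 and 53. The groups did not overlap, and the mutant mean of 57.7 ± 10.1 (SD, n = 2) was 179% of the wild-type mean of 32.3 ± 0.558 (SD, n = 2). The log2 fold change was 0.81 (standard error 0.22, 95% interval 0.35 to 1.27, adjusted p = 0.0044, limma). Without Bmal1-/- replicate 1 it was 0.63 with an adjusted p of 0.099 in limma, and with DESeq2 on the whole reads 0.87 with an adjusted p of 0.061.

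Dusp5 (ENSMUSG00000034765, chromosome 19, 53603599 to 53616921, plus strand), the nuclear phosphatase specific for Erk1/2 and the gene with the CArG boxes shown above, was at 132 and 115 in wild-type and at 145 and 126 in Bmal1-/-. The groups overlapped, since the second mutant library lay below the first wild-type library. The log2 fold change was 0.13 (95% interval −0.15 to 0.42, adjusted p = 0.43, limma), an interval that leaves room for a modest rise or a small fall. Leaving out 1 library moved it to 0.035 (without wild-type replicate 2), 0.034 (without Bmal1-/- replicate 1), 0.232 (without wild-type replicate 1) or 0.233 (without Bmal1-/- replicate 2), none of them called. On the per-length scale, in value per kb of exon, the sum of the 3 phosphatases was 104 and 88.4 in wild-type against 102 and 87.4 in Bmal1-/-, with overlapping groups, while its make-up changed. Dusp6 over Dusp4 per kb was 3.26 and 2.61 in wild-type and 0.838 and 0.980 in Bmal1-/-. Dusp6 was thus the more abundant transcript in both wild-type libraries. In Bmal1-/- reads were 69 and 53 for Dusp4 against 59 and 53 for Dusp6. With equal reads in replicate 2, its ratio under 1 came from the exon lengths alone. A change of the more abundant transcript in both mutant libraries is therefore not shown. The log2 ratio fell by 1.69, with an exact permutation p of 0.333 (two-sided), the smallest that 2 against 2 libraries can give. Dusp6 over Dusp5 per kb was 0.729 and 0.655 against 0.339 and 0.355, a change of −0.99 in the log2 ratio with the same smallest exact p.

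The Sprouty pair also split, with Spry2 up and Spry4 down, and Spred1 rose slightly. Spry2 (ENSMUSG00000022114, chromosome 14, 106291166 to 106296036, minus strand) encodes an inhibitor of receptor tyrosine kinase signalling to Ras. Its values were 1541 and 1363 in wild-type and 1884 and 1923 in Bmal1-/-, and both mutant libraries exceeded both wild-type libraries. On the log2 scale Spry2 changed by 0.39 (standard error 0.06, 95% interval 0.28 to 0.51, adjusted p = 7.1e-06, limma), 131% of wild-type. Over 16 alternatives it lay between 0.30 and 0.48, and it passed in each that kept 2 libraries per genotype. Spry4 (ENSMUSG00000024427, chromosome 18, 38745922 to 38760922, minus strand) encodes a relative that restrains Ras and Raf activation. It was at 92.7 and 63.7 in wild-type and at 50.7 and 36.2 in Bmal1-/-, from 88 and 60 reads against 54 and 38. The groups did not overlap although the wild-type libraries themselves lay well apart, and 55.6% of the wild-type mean was left. On the log2 scale Spry4 changed by −0.83 (standard error 0.22, 95% interval −1.28 to −0.37, adjusted p = 0.0033, limma). Without Bmal1-/- replicate 2 it was −0.59 with an adjusted p of 0.073 in limma, and the call was also lost with no filter on low values (adjusted p = 0.11) and in limma without the trend (adjusted p = 0.088).

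Spred1 (ENSMUSG00000027351, chromosome 2, 116947110 to 117008015, plus strand), which brings neurofibromin to the membrane to switch off Ras, was at 535 and 468 in wild-type and at 609 and 595 in Bmal1-/-. Both mutant libraries were higher than both wild-type libraries. The log2 fold change was 0.26 (standard error 0.08, 95% interval 0.11 to 0.42, adjusted p = 0.0060, limma), 120% of wild-type. Spred1 was at 0.17 without wild-type replicate 2 (adjusted p = 0.080, limma), and without Bmal1-/- replicate 1 it was 0.25 (adjusted p = 0.057, limma), and the call was lost too with no filter (adjusted p = 0.085) and without the trend (adjusted p = 0.089). Because Spry2 is by far the most abundant of the 3 per kb, their per-kb sum went up with it, from 838 and 737 to 1005 and 1018. Spry2 over Spry4 per kb rose from 36.6 and 47.0 to 81.7 and 117, without overlap, a change of 1.24 in the log2 ratio (exact permutation p = 0.333, two-sided, the smallest possible).

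**Figure D2:**
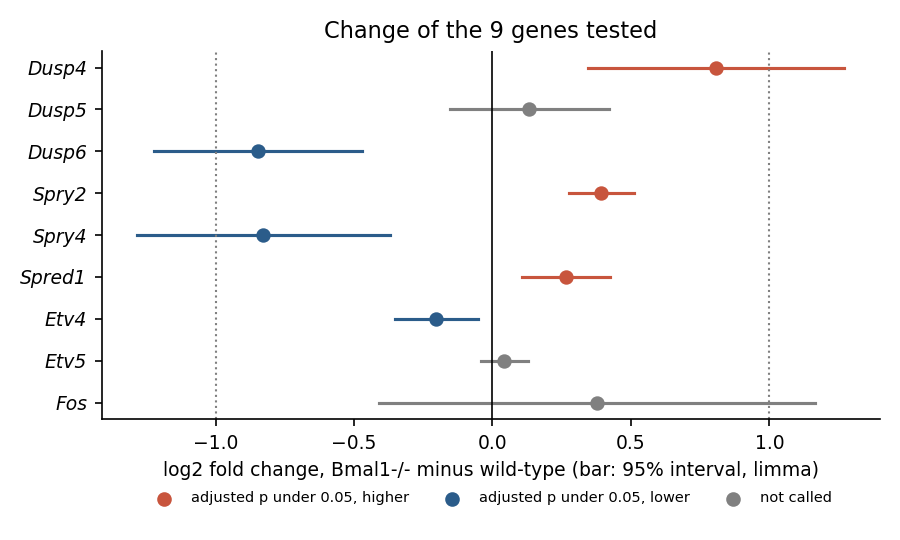
Log2 fold change (Bmal1-/- minus wild-type) of the 9 genes tested, with bars for the 95% interval from limma, red for higher, blue for lower and grey for not called, and dotted lines at 2-fold in either direction. Every point lies inside 2-fold, from −0.85 for Dusp6 to 0.81 for Dusp4, and Etv5 has the narrowest interval.

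Of the Pea3-type Ets factors, Etv4 fell by a small amount and Etv5, the most abundant of the 10 genes, did not pass the test. Etv5 (ENSMUSG00000013089, chromosome 16, 22381382 to 22439792, minus strand), which acts in mESCs in the exit from the naive state, was at 7251 and 6863 in wild-type and at 7245 and 7287 in Bmal1-/-. The groups overlapped, and the log2 fold change was 0.04 (95% interval −0.04 to 0.13, adjusted p = 0.39, limma). Scaled to equal library totals it was 0.10 with an adjusted p of 0.036 in limma. Etv4 (ENSMUSG00000017724, chromosome 11, 101631056 to 101646685, minus strand), its close relative and a common readout of Fgf and Erk activity in embryos, was at 554 and 535 in wild-type and at 476 and 470 in Bmal1-/-. Both mutant libraries lay below both wild-type libraries, with 86.9% of the wild-type mean left. On the log2 scale Etv4 changed by −0.20 (standard error 0.07, 95% interval −0.35 to −0.05, adjusted p = 0.023, limma). The call for Etv4 was lost in 6 of 16 alternatives: with equal library totals (−0.14, adjusted p = 0.11), with DESeq2 (−0.17, adjusted p = 0.25), in limma without the trend (adjusted p = 0.054), and without wild-type replicate 1, Bmal1-/- replicate 1 or Bmal1-/- replicate 2 (adjusted p = 0.082, 0.084 and 0.12). Etv5 over Etv4 per kb was 9.90 and 9.70 in wild-type and 11.5 and 11.7 in Bmal1-/-, without overlap, a change of 0.25 in the log2 ratio (exact permutation p = 0.333, two-sided, the smallest possible).

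Fos and Egr1, the immediate-early factors among the 10 genes, were close to the limit of detection. Other immediate-early genes ranged from under the filter to Ier2, at 3252 and 3280 in wild-type. No culture lacked the Mek inhibitor, so its part in these levels was not tested. Fos (ENSMUSG00000021250, chromosome 12, 86814840 to 86818223, plus strand), a partner of Jun in the AP-1 factor, was at 9.48 and 18.1 in wild-type and at 15.0 and 20.0 in Bmal1-/-, from 9 and 17 reads against 16 and 21. The groups overlapped, and the log2 fold change was 0.38 (standard error 0.38, 95% interval −0.41 to 1.17, adjusted p = 0.42, limma), so that neither a 2-fold rise nor a small fall could be told from no change at this depth. Without wild-type replicate 1, the library with 9 reads, it was −0.054. Egr1 (ENSMUSG00000038418, chromosome 18, 35020861 to 35024638, plus strand), a zinc finger factor that Erk induces within minutes, was at 4.21 and 2.12 in wild-type and at 4.70 and 8.58 in Bmal1-/-. These values are 4, 2, 5 and 9 reads, with exact Poisson 95% intervals of 1.09 to 10.2, 0.242 to 7.22, 1.62 to 11.7 and 4.12 to 17.1, which cover counting error only. Both mutant libraries had more reads than both wild-type libraries, but the intervals overlap throughout. Egr1 was under the filter and not tested, and with no filter limma gave 0.87 with an adjusted p of 0.27. Gm17507, an annotated gene on the opposite strand that overlaps the exons of Egr1, had 0 reads in every library, and no other of the 10 genes overlaps an annotated gene.

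Per kb of exon, wild-type levels ran from Etv5 at 1720 through Spry2 at 696, Etv4 at 176, Spred1 at 74.0, Dusp5 at 49.8, Dusp6 at 34.6, Spry4 at 17.1, Dusp4 at 11.8 and Fos at 5.85 to Egr1 at 1.02. In this order the 2 wild-type libraries of one gene never overlapped those of the next. Etv5 alone stood at the 94.2 percentile of the genes tested by wild-type level per kb and Spry2 at the 84.7 percentile, while Dusp4 stood at 14.4 and Fos at 7.60. In Bmal1-/- the per-kb order changed at its lower end. Dusp4, at 23.7 and 18.4 per kb, lay above Spry4, at 11.1 and 7.90, without overlap. In wild-type Spry4, at 20.2 and 13.9, had been above Dusp4, at 11.9 and 11.6. In Bmal1-/- Dusp4 also overlapped Dusp6, at 19.8 and 18.1, and Spry4 overlapped Fos, at 6.39 and 8.51. Etv5 made up 61.1% and 62.4% of the per-kb sum of all 10 genes in wild-type and 58.2% and 58.3% in Bmal1-/-.

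**Figure D3:**
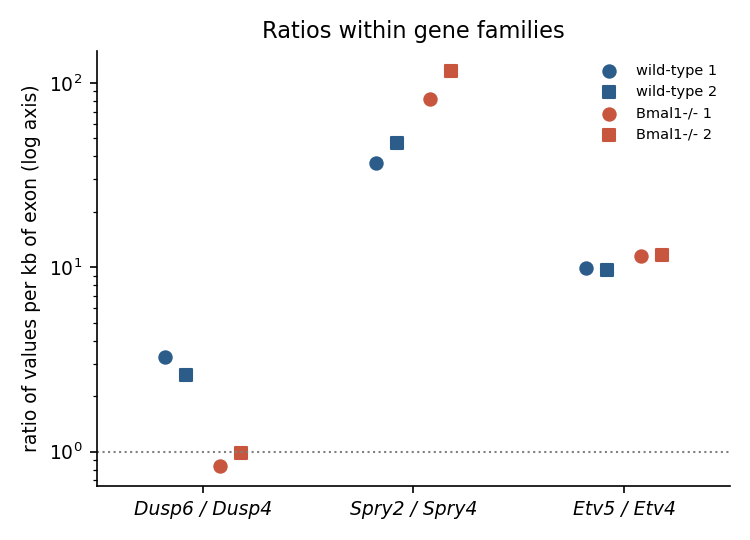
Ratio of values per kb of exon (log axis) between relatives in each library, wild-type in blue and Bmal1-/- in red, with a dotted line at 1. Dusp6 over Dusp4 goes from 3.26 and 2.61 to 0.838 and 0.980, Spry2 over Spry4 from 36.6 and 47.0 to 81.7 and 117, and Etv5 over Etv4 from 9.90 and 9.70 to 11.5 and 11.7.

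The genes whose pattern over the 4 libraries was most like that of Dusp6, by Euclidean distance between centred log2 profiles, were Olfr718-ps1 (distance 0.0408), Nckap5l (0.0909) and Ggt7 (0.0954). Each lay lower in both mutant libraries than in both wild-type libraries, which follows from choosing them by likeness over these same libraries. Olfr718-ps1 was near the filter, at 25.3 and 19.1 in wild-type and at 12.2 and 11.4 in Bmal1-/-. Nckap5l, for example, was at 190 and 156 in wild-type and at 93.9 and 91.5 in Bmal1-/-.

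Other genes of the same pathway, in lists written by hand, likewise went both ways. Of 70 such genes, 62 were tested, and 16 (25.8%) were higher, 16 (25.8%) were lower and 30 did not pass, with a median log2 fold change of −0.03 and 0 genes past 2-fold in limma. Both shares were near the background given above.

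Among the other MAP kinase phosphatases, 3 of 5 genes tested were higher and 1 was lower (backgrounds of 24.0% and 28.6%), with a median log2 fold change of 0.24. Dusp10, which acts mainly on Jnk and p38, went from 110 and 105 to 153 and 186 (0.65 on the log2 scale, adjusted p = 4.2e-04, limma). Dusp9, an Erk phosphatase prominent in mESCs, went from 790 and 850 to 1064 and 1029 (0.35, adjusted p = 5.6e-05, limma), and Dusp16 was the third that rose. Dusp1, an immediate-early phosphatase, fell from 841 and 867 to 742 and 708 (−0.24, adjusted p = 0.0032, limma), with an adjusted p of 0.056 without Bmal1-/- replicate 2 and of 0.081 in DESeq2. For none of these did the mutant libraries overlap the wild-type libraries. The same held for Dusp7, tested and not called, at 465 and 453 against 442 and 429 (adjusted p = 0.43, limma). Lack of overlap thus did not set the called genes apart, and its share over all genes tested was not computed. The other inhibitors of receptor signalling gave 1 higher call of 5 tested, Il17rd, which encodes the Fgf antagonist Sef, at 1749 and 1613 against 1825 and 1858 (0.13, adjusted p = 0.036, limma), a call lost in 7 of 16 alternatives, among them without wild-type replicate 2 (0.07, adjusted p = 0.29) and without Bmal1-/- replicate 1 or 2 (adjusted p = 0.099 and 0.18). Of 7 other Ets factors and Srf, Ets2 alone passed, rising from 659 and 649 to 868 and 862 (0.40, adjusted p = 1.6e-05, limma).

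Other immediate-early genes were the list with most lower calls, 9 of 22 tested (40.9%, against 28.6% of all genes tested) and 5 higher (22.7%, against 24.0%), with a median of −0.16, and the difference from other genes was not tested. Myc, the growth-promoting bHLH factor, fell from 169 and 175 to 107 and 100 (−0.73, adjusted p = 8.1e-05, limma), and Plaur, the urokinase receptor, from 76.9 and 81.8 to 45.1 and 50.5 (−0.72, adjusted p = 0.0026 in limma and 0.070 in DESeq2). The others of this hand-written list that fell were Junb, Jund, Nr4a1, Ier2, Klf10, Btg2 and Ccnd1. Whether each gene of the list responds as an immediate-early gene in these cells was not tested. Cyr61, a secreted matrix protein and known Yap target, rose from 165 and 159 to 289 and 294 (0.84, adjusted p = 9.4e-07, limma), and Phlda1 from 50.6 and 59.5 to 85.5 and 96.3 (0.72, adjusted p = 0.0019, limma). Ctgf, Atf3 and Ier5 also rose. The 6 genes of this list below the filter were Egr2, Egr3, Egr4, Fosb, Fosl1 and Nr4a3, of which Fosb had 5 to 9 reads a library and the others 0 or 1.

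In the cascade itself, from adaptors to Erk and its Rsk substrates, 6 of 23 genes were higher and 6 lower (26.1% each, near the backgrounds of 24.0% and 28.6%). Sos2, an exchange factor that loads Ras with GTP, rose from 299 and 278 to 442 and 494 (0.69, adjusted p = 1.3e-06, limma), and Nf1, the neurofibromin gene whose product unloads it, from 524 and 561 to 735 and 748 (0.45, adjusted p = 1.2e-05, limma). Mapk3, which encodes Erk1, fell from 1005 and 1028 to 724 and 753 (−0.46, adjusted p = 2.1e-06, limma), and Hras from 1474 and 1517 to 1118 and 1092 (−0.44, adjusted p = 8.5e-07, limma). Frs2, Braf, Ksr1 and Rps6ka3 also rose, and Nras, Map2k2 and Rps6ka1 were among the others that fell. These are mRNA levels, and phosphorylation of Erk was not measured in these libraries.

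**Figure D4:**
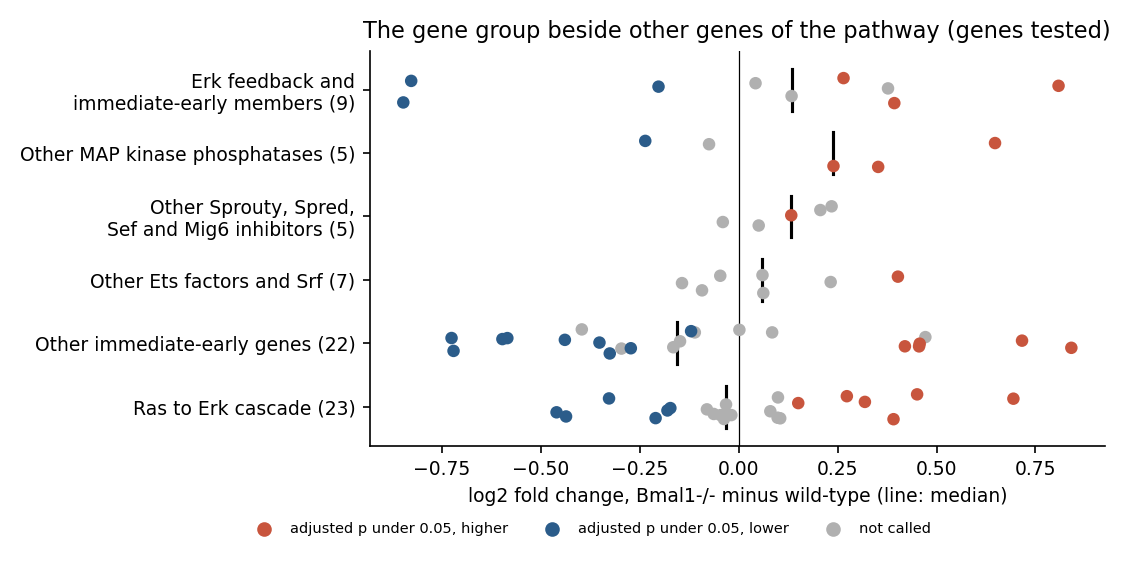
Log2 fold change (Bmal1-/- minus wild-type) of each gene tested in the 9-gene feedback group and in 5 lists of other pathway genes, red for higher, blue for lower and grey for not called, with a black line at each median and vertical jitter within a row. The medians lie between −0.16 for other immediate-early genes and 0.24 for other MAP kinase phosphatases, and each list holds points on both sides of 0.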

How the data were processed

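Stranded poly(A) mRNA libraries of 2 wild-type and 2 Bmal1-/- JM8 cultures were analysed as labelled. The authors processed the reads with bcl2fastq 2.18.0.12, cutadapt 1.9.1 and STAR 2.5.2b, per the processing notes, on mm9. The values in the table deposited by the authors are a TMM-normalized signal per gene and library. Each was a whole multiple of the value of 1 read (100% of values, tolerance 0.01), so whole reads were recovered. Whether counting used strand is not given in the sources used here. Depth was 21504265 to 23329034 reads on genes. Gene symbols came from an annotation of the same build, which matched all 37310 identifiers.

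Because the values are normalized, the main test was limma 3.58.1 (R 4.3.3; lmFit, eBayes with trend; prior df 18.1) on log2(value + 1), 2 against 2 libraries with no covariate, in the 14510 genes that averaged 10 or more. Fold changes are on that scale, which understates low genes. A call needed a Benjamini-Hochberg adjusted p under 0.05 over all genes tested. Alternatives were edgeR 4.0.16 (quasi-likelihood) and DESeq2 1.42.0 on the whole reads, other filters, pseudocounts and scalings, no trend, a replicate block, and each library left out. Leaving out a library left 1 library in its genotype, so the spread in those fits came from the other genotype and the limma prior alone. All alternatives are refits of the same libraries and not independent support. The scripts were tested on simulated data first. Named genes are the 10 members, the 2 highest and 2 lowest calls of each other list, and the 3 genes most like the member with the largest change. Other genes are named only beside a count, and 1 gene of the lists is not reported here by name. The members and lists were chosen with earlier results of these data known. RefSeq start windows came from GRCm38.p6, matched by symbol with chromosome 18 (Spry4 and Egr1) left out, and were not joined to mm9 coordinates. Python 3.11.15, pandas 2.3.3, scipy 1.17.1 and matplotlib 3.10.9 were used for counts, exact tests and figures.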

Additional observations from a re-analysis of the deposited data

How the results depend on the processing

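Dusp6 and Spry2 kept direction in every alternative that tested them, and their call in each of these that kept 2 libraries per genotype. Of the counts, 3 genes higher became 1 to 3 with each library left out (1, Spry2, without Bmal1-/- replicate 1). The 3 genes lower became 1 with a mean of at least 100, where Dusp6 and Spry4 are not tested, 1 (Dusp6) in limma without the trend, and 1 to 3 with each library left out (1, Dusp6, without Bmal1-/- replicate 2). The 0 genes past 2-fold became 2 under quantile normalization, Dusp6 and Spry4, and 0 to 2 with each library left out (2 without wild-type replicate 2, 1 without Bmal1-/- replicate 1). Signs turned for Dusp5 under quantile normalization (−0.010) and for Fos without wild-type replicate 1 (−0.054, within −0.054 to 0.81 with each library left out), both not called. The cause of these changes was not tested. With the replicate block the group again had 3 higher and 3 lower calls, against 3617 higher and 4332 lower over all genes. The deviations of same-numbered libraries correlated at −0.02 over the genes tested. With 1 difference per genotype, this cannot show whether same-numbered cultures were paired. Over all genes, calls were 3488 higher and 4151 lower, but 4200 and 3194 with equal library totals, and 5060 in all without the trend. Reads limit Egr1, Fos and, in part, Dusp4, Dusp6 and Spry4.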
